A study of Mus musculus with 19 samples.

Results

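Antibody transcripts were followed in primary p53/MCA sarcomas that grew in mice with and without a working Rag2 gene. The set holds 10 genes, which are the light chain constant genes Igkc and Iglc2, the heavy chain constant genes Ighm, Ighd, Ighg1, Ighg2b, Ighg2c, Ighg3 and Igha, and Jchain. They were chosen by symbol, and all 10 had a row among the 48795 genes of the expression table. RNA sequencing covered 19 whole tumors, 11 labelled Rag2-/- and 8 labelled Rag2+/-, from littermate mice. In both groups a sarcoma was started in the gastrocnemius muscle at 6 to 10 weeks of age by an adenovirus named Adeno-sgp53-Cas9, which delivers Cas9 with a Trp53-targeting guide, followed by the carcinogen 3-methylcholanthrene (MCA) at 300 µg. Trp53 was therefore targeted in all 19 tumors, and the genotypes differ in Rag2 alone as far as the labels say. The mice were untreated, and tumors were taken at about 70 to 150 mm3. The Rag2-null allele removes T and B lymphocytes in the whole animal and is not specific to the tumor, and the strain of these mice is not given in the sources used here.

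An antibody chain is made from a variable part, which has to be assembled from V, D and J segments by the RAG recombinase, and from a constant part that is already encoded whole in the genome. Promoters upstream of the heavy chain constant regions can also give germline, or sterile, transcripts that contain no V segment, so constant gene RNA does not in itself show that a chain was assembled. Ighm and Ighd serve naive B cells, class switching replaces them by a γ or α gene, and Jchain, whose protein links IgM and IgA into polymers, is best known from antibody-secreting plasma cells.

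Values are log2 of upper-quartile normalized FPKM, a number of fragments scaled by gene length and library size, after 0.1 had been added, and the lowest value of the table, −3.32, stands for a gene listed at 0. Depth, estimated from the spacing of the low values, was 24.9 to 33.7 M fragments on genes in 18 tumors and 5.23 M in the Rag2-/- tumor S41. Rag2 itself was above the lowest value in all 19 tumors, from −2.05 to 0.36 in Rag2-/- and from −2.33 to −0.57 in Rag2+/- tumors. That value covers the whole gene and cannot show which part was transcribed, so it does not check the genotype. Cd3e, a chain of the T cell receptor complex, was listed at 0 in all 11 Rag2-/- tumors and was above it in all 8 Rag2+/- tumors. Of 8 T cell genes, 7 were lower in Rag2-/- tumors, where 0.131% of all genes tested were, but 5 of the 8, Cd3e among them, were tested only through the Rag2+/- tumors by the filter described below, so this count is a description. Skeletal muscle genes had a median difference of −2.22 between the genotypes, with 0 of 10 past the limma threshold and 8 with an unadjusted p under 0.05, and their summed normalized FPKM ran from 337 to 107270 in Rag2-/- and from 1880 to 158099 in Rag2+/- tumors. The part of muscle content in the differences below was not tested.

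Igkc, Igha, Jchain and Ighg2b were lower without Rag2, Ighm was well above the lowest value in every tumor of both genotypes, and Ighd was low in both. In the limma fit over all 18374 genes tested, 7 of the 10 had enough signal to be tested and 4 of these 7 were lower in Rag2-/- tumors, namely Igkc, Igha, Jchain and Ighg2b, while 24 of all genes tested (0.131%) were lower and 0 (0%) were higher. An unadjusted limma p under 0.05 was seen for 2734 of the 18374 genes. A gene was tested when it was above the lowest value in at least 8 tumors, which is also the number of Rag2+/- tumors. Igkc, Igha, Jchain and Ighg2b were above it in 2, 6, 5 and 0 Rag2-/- tumors and reached that number only with the Rag2+/- tumors, so the count of 4 among 7 is a description and Ighg2b, once tested, had to differ. The same 4 genes had no overlap between genotypes, a pattern shared by 14 of the genes tested (0.0762%). The differences of Igkc, Igha and Jchain lay between −9.73 and −7.30 on the log2 scale, where the median over all genes tested was 0.07. Besides these 4, the genes called lower included 2 κ variable segments, Igkv1-117 and a second one, so that 6 of the 24 were immunoglobulin genes or Jchain. Both segments were listed at 0 in all 11 Rag2-/- tumors and, like Ighg2b, were tested only through the Rag2+/- tumors. In whole tumors, fewer cells of a type and less RNA per cell cannot be told apart.

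**Figure D1:**
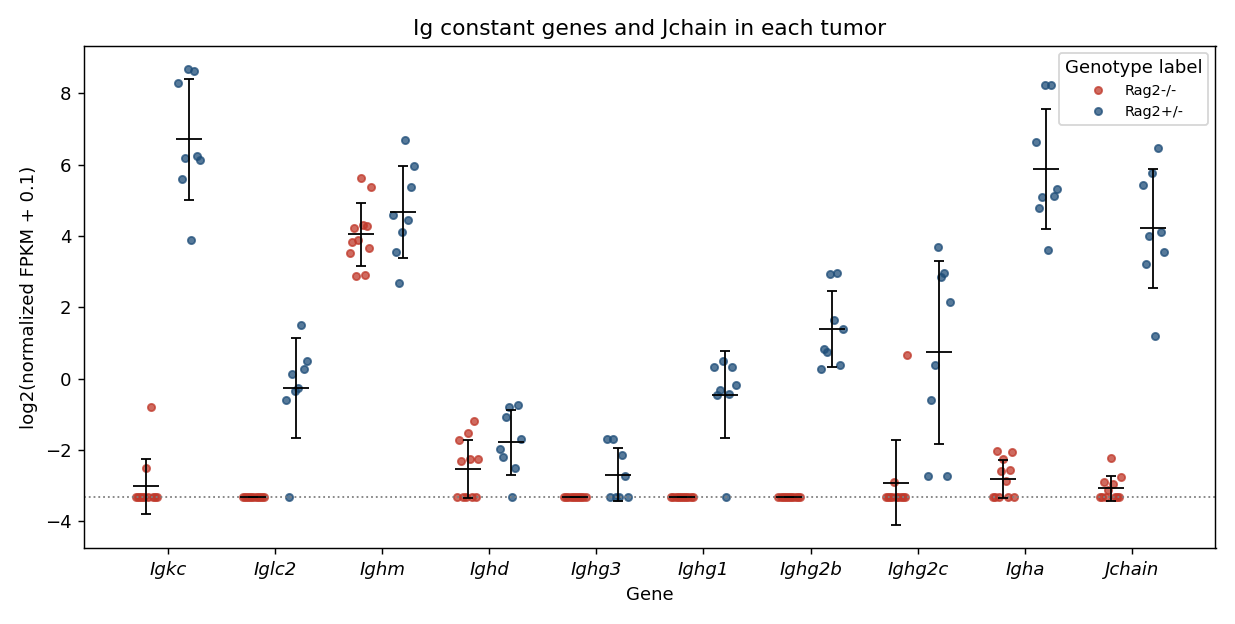
Log2(normalized FPKM + 0.1) on the vertical axis for each of the 10 genes in each tumor, with red points for the 11 Rag2-/- and blue points for the 8 Rag2+/- tumors; bars give the mean and SD, and the dotted line the lowest value of the table, −3.32. Ighm is the only gene of the set with all 11 red points clear of the dotted line, and Igkc, Igha, Ighg2b and Jchain show no overlap between the colours.

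Igkc (ENSMUSG00000076609), the constant part of every κ light chain, showed the largest difference in means. It lies on the plus strand at chr6:70726435-70726966 of GRCm38 and has a single annotated transcript. The first 90 coding bases are shown because they are the stretch to which a rearranged Vκ-Jκ exon is joined by splicing.

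Igkc, chr6:70726435-70726524, plus strand: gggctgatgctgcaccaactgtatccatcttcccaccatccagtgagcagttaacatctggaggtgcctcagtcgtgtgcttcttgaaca

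In Rag2+/- tumors, Igkc ranged from 3.88 in S56 through a median of 6.22 to 8.69 in S55. In Rag2-/- tumors it was listed at 0 in 9 of 11, and stood at −2.51 in S46 and at −0.80 in S48. The lowest Rag2+/- tumor thus lay well above the highest Rag2-/- tumor, with an estimated 91.9 fragments against 6.97. The mean was −3.02 ± 0.78 (SD, n = 11) without Rag2 and 6.71 ± 1.70 (SD, n = 8) with it, and the difference was −9.73 (SE 0.55, limma adjusted p = 1.94e-09). The exact permutation test gave p = 1.32e-05, the smallest that 11 against 8 tumors allow.

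Iglc2 (ENSMUSG00000076937), a λ constant gene on the minus strand of chromosome 16, was listed at 0 in all 11 Rag2-/- tumors. Among Rag2+/- tumors it was at the lowest value in S53, at a median of −0.06 and at most at 1.51 in S58. Only 7 tumors were above the lowest value, too few for the fit over all genes, and the exact permutation test gave p = 1.59e-04. With all Rag2-/- tumors at 0, this p follows from the number of Rag2+/- tumors above 0 and is a description. No difference in means is given here against a group listed wholly at 0, since the added 0.1 would set its size. The relatives of Iglc2 are compared with it below, over 90 coding bases from the same starting point, with capitals for each base that differs from Iglc2. They are shown because the relatives are alike over much of this stretch. Over the whole coding length, 0 of 166 windows of 150 bases of Iglc2 matched a relative with at most 2 mismatches.

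Iglc2, chr16:19198763-19198852, minus strand: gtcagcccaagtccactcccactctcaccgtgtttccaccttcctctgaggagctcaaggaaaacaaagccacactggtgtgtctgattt

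Iglc3, chr16:19065592-19065681, minus strand: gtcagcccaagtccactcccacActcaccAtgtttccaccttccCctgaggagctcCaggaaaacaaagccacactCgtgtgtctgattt

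Iglc1, chr16:19061982-19062071, minus strand: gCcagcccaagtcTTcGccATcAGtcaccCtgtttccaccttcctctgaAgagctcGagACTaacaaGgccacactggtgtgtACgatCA

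Iglc3 differed from Iglc2 at 5 of the 90 bases and Iglc1 at 19. Iglc1 was, like Iglc2, listed at 0 in all 11 Rag2-/- tumors and above it in 7 of 8 Rag2+/- tumors, with a median of 1.93 and a highest value of 3.36 in S58. Iglc3 behaved otherwise and was above the lowest value in 4 of 11 Rag2-/- and 3 of 8 Rag2+/- tumors, at an estimated 6.00 fragments or fewer in the former. Iglc4 was listed at 0 in all 19 tumors. Together the λ genes made up 1.24% to 7.29% of light chain normalized FPKM in the Rag2+/- tumors, the rest being Igkc.

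Ighm (ENSMUSG00000076617), which encodes the constant part of the μ chain of IgM, was the only abundant member of the set in the Rag2-/- tumors. It lies on the minus strand at chr12:113418558-113422730, and the start of its first constant exon is shown because germline and rearranged transcripts share it. The values in these data therefore cannot separate the kinds of Ighm transcript.

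Ighm, chr12:113422641-113422730, minus strand: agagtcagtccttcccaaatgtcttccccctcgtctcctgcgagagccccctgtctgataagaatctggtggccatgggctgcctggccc

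Ighm was far above the lowest value in all 11 Rag2-/- tumors, from 2.87 in S44 through a median of 3.88 to 5.62 in S46. In the 8 Rag2+/- tumors it ran from 2.69 in S54 through a median of 4.51 to 6.68 in S56. The groups overlapped, with 2 of the 8 Rag2+/- tumors, S56 and S60, above every Rag2-/- tumor and S54 below every one. An estimated 93.4 to 2075 fragments stood behind the Rag2-/- values, the lowest number in the shallow library S41, and 284 to 2052 behind the Rag2+/- values. Means were 4.04 ± 0.87 (SD, n = 11) in Rag2-/- and 4.68 ± 1.29 (SD, n = 8) in Rag2+/- tumors, and the difference of −0.63 was within the spread between tumors (SE 0.46, 95% confidence interval −1.60 to 0.33, limma adjusted p = 0.464). The exact permutation test gave p = 0.219. The interval leaves room for a fall of 1.60 on the log2 scale, so equal levels were not shown.

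The tumors with the most Ighm were S46 and S51 in the Rag2-/- group, at 5.62 and 5.38, and S56 in the Rag2+/- group. None of these is among the 15 tumors that the study lists for its own comparison of the genotypes. With those 15 tumors alone the Ighm difference was −0.65, with an exact permutation p of 0.170.

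**Figure D2:**
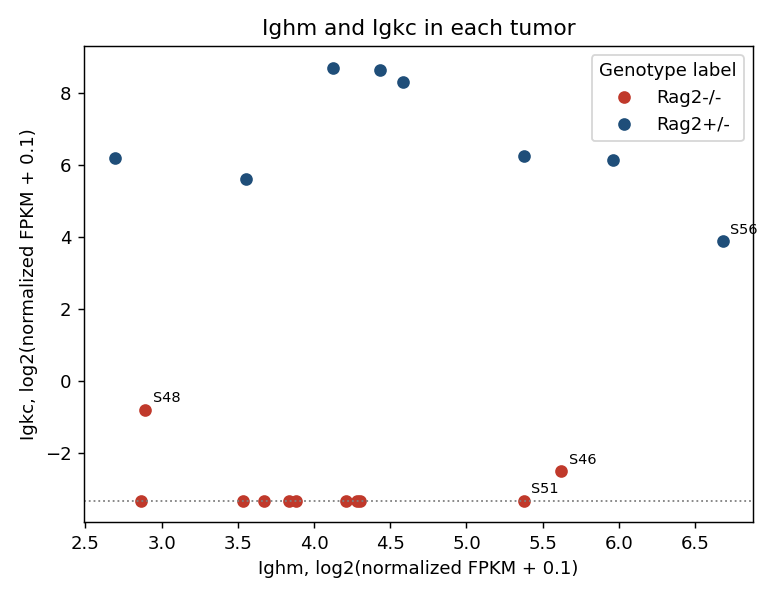
Igkc on the vertical axis against Ighm on the horizontal axis, both as log2(normalized FPKM + 0.1), with a red point for each Rag2-/- and a blue point for each Rag2+/- tumor and the dotted line at the lowest value, −3.32. Along the horizontal axis the colours overlap, along the vertical axis they are apart, and S56 has the most Ighm and the least Igkc of the blue points.

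Because Ighm was present in both genotypes, each gene was also measured against it within the same tumor. The log2 value minus that of Ighm was lower in Rag2-/- tumors for Igkc, with a difference of −9.10, and likewise for Igha (−8.06) and Jchain (−6.67), each with p = 1.32e-05 in the exact permutation test. For Ighg2c the difference was −3.03 (exact permutation p = 0.00351). This no longer passed when 1 in place of 0.1 was added before the log. For Ighg2b, Ighg1, Ighg3 and Iglc2, listed at 0 in all Rag2-/- tumors, the measure there is the lowest value minus Ighm, so no test of them is given. The p-values are unadjusted over 9 genes. For Ighd the difference was −0.12 (exact permutation p = 0.856).

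Ighd (ENSMUSG00000104213) encodes the δ chain of IgD, lies just downstream of Ighm and is made from the same primary transcript by alternative splicing. It was low in both genotypes. In Rag2-/- tumors it was listed at 0 in 5 of 11, with a median of −2.32 and a highest value of −1.19 in S49, and in Rag2+/- tumors it ran from the lowest value in S56 through a median of −1.83 to −0.75 in S59. The estimated fragments reached 15.7 and 20.9, so these values rest on few molecules. The difference was −0.75 (SE 0.39, limma adjusted p = 0.353), and the exact permutation test gave p = 0.0798.

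The γ genes, which encode the IgG heavy chains, are close relatives, and the first 90 coding bases of the CH1 exon are shown for all 4 because the values of each depend on bases that tell them apart. Capitals mark bases that differ from Ighg2b, which was taken as the reference.

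Ighg2b, chr12:113307844-113307933, minus strand: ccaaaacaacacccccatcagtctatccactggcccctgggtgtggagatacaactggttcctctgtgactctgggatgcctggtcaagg

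Ighg2c, chr12:113288843-113288932, minus strand: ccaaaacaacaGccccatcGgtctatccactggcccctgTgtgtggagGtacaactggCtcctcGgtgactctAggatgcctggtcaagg

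Ighg1, chr12:113330434-113330523, minus strand: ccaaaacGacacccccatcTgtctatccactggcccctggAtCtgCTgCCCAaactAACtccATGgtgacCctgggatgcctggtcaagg

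Ighg3, chr12:113361143-113361232, minus strand: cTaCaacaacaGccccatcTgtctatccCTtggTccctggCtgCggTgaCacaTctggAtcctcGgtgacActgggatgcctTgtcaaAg

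Over this window Ighg2c differed from Ighg2b at 7 bases, and Ighg1 and Ighg3 at 17 each. Over the whole coding length, 4.77% of the 150-base windows of Ighg2b matched Ighg2c with at most 2 mismatches, the number the authors allowed per read, and 4.78% of those of Ighg2c matched Ighg2b. No other pair among the 10 genes shared such a window, so at this length the split of reads between Ighg2b and Ighg2c is the uncertain one. Of exact 50-base windows, 9.07% of Ighg2b, 5.75% of Ighg2c, 3.39% of Ighg3 and 0.88% of Ighg1 were shared with another constant gene. For Iglc2 it was 14.3%, shared most with Iglc3. Ighg2a, an allelic form of Ighg2c in some strains, has no row of its own in the table. The strain is not known here, so the Ighg2c values may miss or misread RNA of an Ighg2a allele.

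Ighg2b (ENSMUSG00000076613) was listed at 0 in all 11 Rag2-/- tumors and was above it in all 8 Rag2+/- tumors. There it ran from 0.28 in S52 through a median of 1.116 to 2.97 in S58, with 22.0 to 252 estimated fragments. Ighg2b was tested only through the Rag2+/- tumors, so its limma adjusted p of 1.70e-08 is a description. The fitted difference has a size that the added 0.1 sets. It was −4.72 as deposited, −1.88 with 1 added and −7.98 with 0.01 added, and none of these is a fold.

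Ighg2c (ENSMUSG00000076612) was less even. Of the Rag2-/- tumors 9 were listed at 0, S45 stood at −2.91 on about a single fragment, and S51 stood at 0.66 on an estimated 24.9 fragments. In Rag2+/- tumors it ran from −2.73 in S59 through a median of 1.26 to 3.69 in S55. S51 thus lay above 4 of the 8 Rag2+/- tumors. The difference was −3.67 (SE 0.82; −1.66 with 1 and −6.16 with 0.01 added) and missed the threshold over all genes (limma adjusted p = 0.122), although the exact permutation test of this gene alone gave p = 0.00109. Without S51 the difference was −4.02 and the limma adjusted p 0.0240.

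Ighg1 (ENSMUSG00000076614) and Ighg3 (ENSMUSG00000076615) were listed at 0 in all 11 Rag2-/- tumors and were too rarely seen to enter the fit. Ighg1 was above the lowest value in 7 of 8 Rag2+/- tumors, with a median of −0.25 and a highest value of 0.49 in S55 (exact permutation p = 1.59e-04). Ighg3 was above it in 4 of 8, on 5.99 estimated fragments or fewer, and its highest value was −1.69 in S54 (exact permutation p = 0.0181). With all Rag2-/- tumors at 0, these 2 unadjusted p-values follow from the number of Rag2+/- tumors above 0 and are a description. When every gene seen in at least 1 tumor was fitted, where 34 of 25052 genes (0.136%) were lower, the limma adjusted p was 2.14e-04 for Ighg1, 5.05e-04 for Iglc2 and 0.403 for Ighg3. These 3 genes entered that fit only through the Rag2+/- tumors and could only come out lower, so the values are a description. Among these 25052 genes the groups did not overlap for 14 (0.0559%). Ighe, the gene of the IgE heavy chain, was listed at 0 in all 19 tumors.

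Igha (ENSMUSG00000095079), the constant gene of the IgA heavy chain at chr12:113254830-113260236, was the most abundant heavy constant gene in Rag2+/- tumors by its mean. It ran from 3.62 in S56 through a median of 5.22 to 8.24 in S55. In Rag2-/- tumors it was listed at 0 in 5 of 11 and reached −2.02 in S43, on 4.01 estimated fragments or fewer. Its low values fell on whole fragments when the 1100-base transcript was used, to within 0.0067 fragments on average, and this transcript lacks the membrane exons of the longer form. Means were −2.81 ± 0.54 (SD, n = 11) in Rag2-/- and 5.88 ± 1.67 (SD, n = 8) in Rag2+/- tumors, which put the difference at −8.69 (SE 0.51, limma adjusted p = 2.16e-09). It was −5.84 with 1 and −10.74 with 0.01 added.

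Jchain (ENSMUSG00000067149), on the minus strand of chromosome 5, is not an immunoglobulin gene and needs no rearrangement. It ran from 1.19 in S56 through a median of 4.07 to 6.46 in S58 in Rag2+/- tumors. In Rag2-/- tumors it was listed at 0 in 6 of 11 and reached −2.21 in S46, on fewer than 5 estimated fragments. The difference was −7.30 (SE 0.49, limma adjusted p = 1.70e-08), and −4.30 with 1 in place of 0.1 added.

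**Figure D3:**
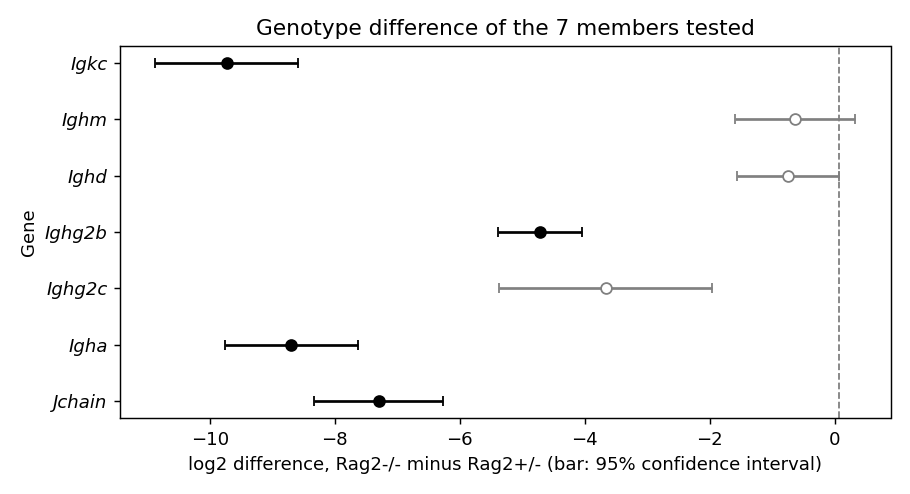
Difference in mean log2 value, Rag2-/- minus Rag2+/-, on the horizontal axis for the 7 genes of the set that entered the limma fit, with 95% confidence intervals; filled points have an adjusted p under 0.05 and the dashed line is the median of all genes tested, 0.07. The intervals of Igkc, Igha, Jchain and Ighg2b lie far to the left, the place of Ighg2b being set by the added 0.1, and that of Ighm runs from −1.60 to 0.33.

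The make-up of heavy chain constant RNA differed between the genotypes. Ighm took 96.3% to 100% of the summed normalized FPKM of the 7 heavy constant genes in Rag2-/- tumors. In Rag2+/- tumors its share ran from 5.06% in S55 to 82.1% in S56, with a median of 23.3%, while that of Igha ran from 9.75% in S56 to 88.8% in S58, with a median of 70.8%. Igha was above Ighm in 5 of 8 Rag2+/- tumors, and in S56, S59 and S60 the order was turned. The γ genes were minor throughout, with medians of 2.30% for Ighg2b, 2.48% for Ighg2c and 0.81% for Ighg1 in Rag2+/- tumors. These shares carry no test because several genes were listed at 0 in all Rag2-/- tumors.

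Light chain RNA per heavy chain RNA showed the same separation. The ratio of summed light to summed heavy constant normalized FPKM was at most 0.097 in Rag2-/- tumors, in S48, with a median of 0. In Rag2+/- tumors it ran from 0.12 in S56 to 2.49 in S52, with a median of 1.20.

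**Figure D4:**
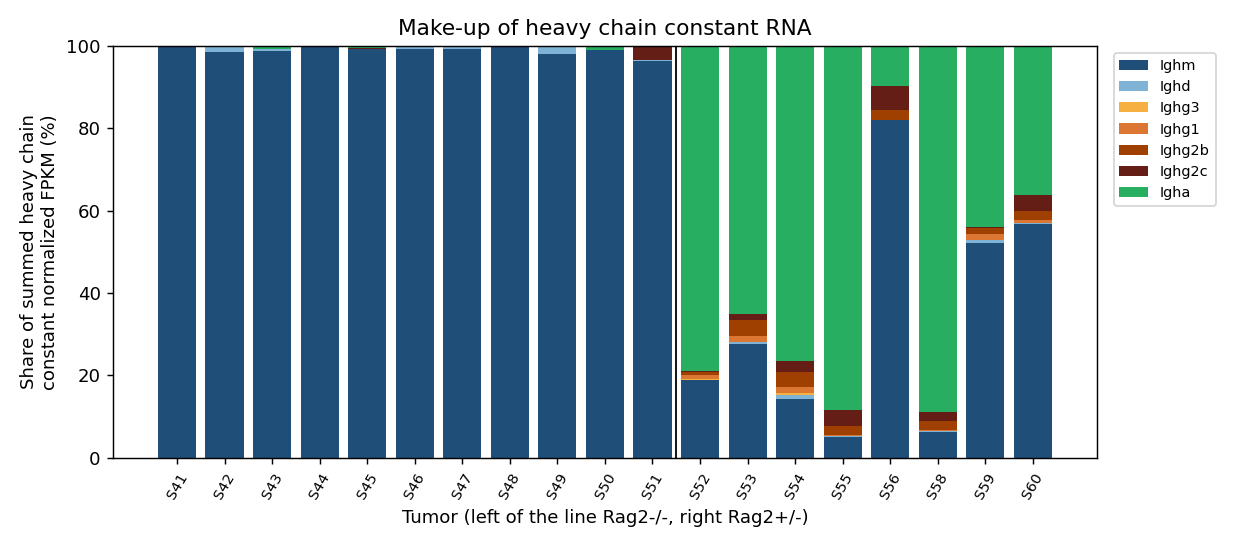
Share of each of the 7 heavy chain constant genes in their summed normalized FPKM (percent, vertical axis) in each tumor, with the 11 Rag2-/- tumors left of the line and the 8 Rag2+/- tumors right of it. Ighm fills the bars on the left, where S51 has the most Ighg2c at 3.44%, and Igha makes up most of the bar in 5 of the 8 tumors on the right.

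Ordered by mean level, the Rag2+/- tumors had Igkc first, followed by Igha, Ighm, Jchain, Ighg2b, Ighg2c, Iglc2, Ighg1, Ighd and Ighg3. Igkc was above Igha in all 8 tumors, by 0.83 ± 0.45 (SD, n = 8). Igha and Ighm, and Ighm and Jchain, did not differ beyond the spread of their difference between tumors, at 1.20 ± 2.42 and 0.46 ± 2.54 (SD, n = 8). The same held for Ighg2b against Ighg2c, Ighg2c against Iglc2, Iglc2 against Ighg1 and Ighd against Ighg3. In the Rag2-/- tumors Ighm was above the next gene, Ighd, in all 11 tumors, by 6.58 ± 0.68 (SD, n = 11), and none of the other neighbours differed beyond their spread.

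Variable segments, which have to be rearranged before they are spliced to a constant gene, marked the genotypes without overlap. Of 218 V segments in the table, 0 were above the lowest value in any Rag2-/- tumor, which is 0 of 2398 values, while 143 were above it in at least 1 Rag2+/- tumor. A single fragment on a V segment of median length would be 0.101 to 0.184 normalized FPKM in 10 of the Rag2-/- tumors and 0.581 in S41. A count of 0 allows up to 3 fragments, which is 0.303 to 0.552 normalized FPKM in the 10 and 1.74 in S41, for counting error only. In Rag2+/- tumors the number of V segments ran from 7 in S56 through a median of 47.5 to 107 in S58, with a mean of 51.5 ± 35.6 (SD, n = 8), and the exact permutation test of the difference gave p = 1.32e-05. With 0 in every Rag2-/- tumor, this smallest possible p only restates that the groups did not overlap. By locus, 64 of 113 heavy, 76 of 102 κ and 3 of 3 λ V segments were seen. The 19 D and 14 J segments were listed at 0 in all 19 tumors, and their median lengths of 17 and 40 bases are shorter than a read of 150 bases.

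Among heavy V segments, Ighv1-64, Ighv10-1 and Ighv2-9 had the highest mean normalized FPKM in Rag2+/- tumors, and they were above the lowest value in 4, 5 and 2 of the 8 tumors. The place of Ighv2-9 came from S58, where it reached a log2 value of 2.84, and its median was at the lowest value. Among κ segments these were Igkv1-110, Igkv1-117 and Igkv10-96, seen in 7, 8 and 6 tumors. The share of the top κ segment in all κ V normalized FPKM was 8.68% in S58 and 41.5% in S56, the tumor with only 5 κ segments. V segments resemble each other in sequence, so the values of single segments are uncertain.

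**Figure D5:**
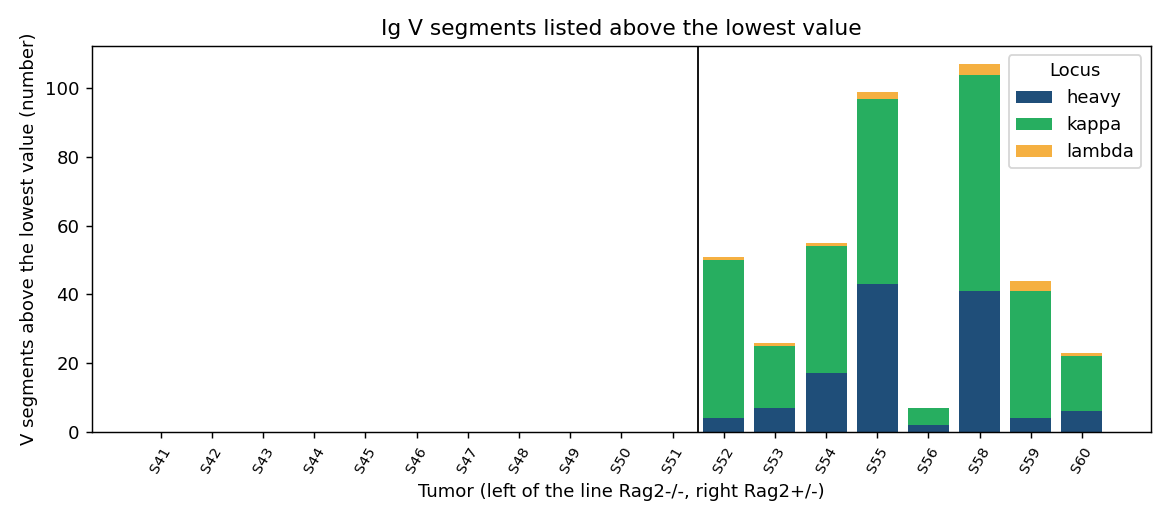
Number of immunoglobulin V segments above the lowest value of the table (vertical axis) in each tumor, stacked by heavy, κ and λ locus, with the 11 Rag2-/- tumors left of the line and the 8 Rag2+/- tumors right of it. The Rag2-/- bars are all at 0, and the Rag2+/- bars range from 7 in S56 to 107 in S58.

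Genes of the B lineage around the constant genes were examined next, since RNA from whole tumors holds any B or plasma cells present. Cd79a, the signalling partner of membrane immunoglobulin, had a mean of −2.72 ± 0.58 (SD, n = 11) without Rag2 and of −0.45 ± 0.84 (SD, n = 8) with it, and was lower in the former by a difference of −2.27 (SE 0.33, limma adjusted p = 0.00111). It was above the lowest value in 7 of 11 Rag2-/- tumors and all 8 Rag2+/- tumors, so it too reached the 8 tumors of the filter only with the latter. Its partner Cd79b was at 0.86 ± 0.74 (SD, n = 11) and 0.77 ± 0.86 (SD, n = 8) and did not pass (limma adjusted p = 0.896). Vpreb1, part of the surrogate light chain that pairs with μ chains in precursor B cells, was above the lowest value in all 11 Rag2-/- and in 5 of 8 Rag2+/- tumors, on 20.2 estimated fragments or fewer (difference 0.67, limma adjusted p = 0.456).

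Ms4a1, which encodes CD20, was listed at 0 in 8 of 11 Rag2-/- and 2 of 8 Rag2+/- tumors. Of the 11 genes of B cell identity, 8 were tested, 0 passed by limma and 1 was under 0.05 before adjustment, and their summed normalized FPKM ran from 15.2 to 65.7 in Rag2-/- and from 15.3 to 36.8 in Rag2+/- tumors, so the ranges overlapped. Ebf1, a transcription factor also expressed outside the B lineage, was at 3.52 ± 0.68 (SD, n = 11) and 3.21 ± 0.78 (SD, n = 8). The part of these cells in the Ighm values was not tested.

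Of the 11 genes of plasma cells and antibody secretion, 9 were tested, with a median difference of −0.024, and 0 passed by limma. Of the 2 genes under 0.05 before adjustment, Mzb1 was on the lower side and Eaf2 on the higher side without Rag2. Mzb1, a chaperone of antibody-secreting cells, was at −2.94 ± 0.53 (SD, n = 11) in Rag2-/- and −0.64 ± 1.97 (SD, n = 8) in Rag2+/- tumors (difference −2.30, SE 0.58, limma adjusted p = 0.254). Eaf2, an elongation factor partner, was at −0.88 in Rag2-/- and −1.96 in Rag2+/- tumors on average (difference 1.07, SE 0.46, limma adjusted p = 0.327). The differences of Txndc5 and Creld2, proteins of the endoplasmic reticulum, were 0.48 (limma adjusted p = 0.461) and 0.34 (limma adjusted p = 0.433). Pou2af1, a coactivator of immunoglobulin promoters, was listed at 0 in 10 of 11 Rag2-/- and 2 of 8 Rag2+/- tumors. Xbp1, which drives the secretory programme and acts in many cell types, was at 5.88 ± 0.43 (SD, n = 11) and 5.91 ± 0.32 (SD, n = 8).

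Genes of recombination and class switching gave 0 of 4 tested past the limma threshold and 2 with an unadjusted p under 0.05. Rag1, the partner of Rag2 in the recombinase, was listed at 0 in 6 of 11 Rag2-/- and 7 of 8 Rag2+/- tumors. Among 11 cytokine and receptor genes that act on class switching, 7 were tested and 0 passed by limma, also at an unadjusted p under 0.05, with Tgfb1, a signal for the switch to Igha, at 5.22 ± 0.58 (SD, n = 11) and 5.19 ± 0.36 (SD, n = 8). Of the transport receptors, Pigr, which carries polymeric IgA across epithelia, was listed at 0 in 9 of 11 and 6 of 8 tumors.

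Of the markers of other cells, 8 genes each, 0 passed by limma, with an unadjusted p under 0.05 for 5 genes of natural killer cells (median difference 1.03), 3 of plasmacytoid dendritic cells (−0.17) and 0 of macrophages (0.36).

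The T cell receptor offers a comparison, because its constant genes too can be transcribed before rearrangement. Of its 4 constant genes tested, 1 passed by limma and all 4 were under 0.05 before adjustment, with a median difference of −1.67. Trac, the constant gene of the α chain, was the gene that passed, with a difference of −5.32 (SE 0.37, limma adjusted p = 1.70e-08). It was listed at 0 in 8 of 11 Rag2-/- tumors and so was tested only through the Rag2+/- tumors. Trbc2, of the β chain, was above the lowest value in all 11. Its mean was 1.91 ± 1.32 (SD, n = 11) there and 3.45 ± 0.83 (SD, n = 8) in Rag2+/- tumors, and it differed by −1.55 without passing (SE 0.50, limma adjusted p = 0.327). The differences of Trbc1 and Trdc, which encode constant parts of β and δ chains, were −1.79 and −0.95, both with a limma adjusted p of 0.327.

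Across the 8 Rag2+/- tumors Igkc, Igha and Jchain ranked the tumors alike. Igkc and Jchain had a Pearson r of 0.98 (exact permutation p = 9.92e-05) and a Spearman rho of 0.98 (exact permutation p = 3.97e-04), and Igkc and Igha a Pearson r of 0.96 (exact permutation p = 2.23e-04) and a rho of 0.93 (exact permutation p = 0.00223). Adjusted over the 16 relations computed, the p-values of r were 0.00159 and 0.00179, and those of rho 0.00635 and 0.0179. Without the 2 tumors farthest from the median of Igkc, r was 0.98 and 0.995. Igkc and Ighm gave a Pearson r of −0.40 (exact permutation p = 0.323, adjusted 0.438) and a rho of −0.31 (exact permutation p = 0.462, adjusted 0.599), with r at −0.39 without the 2 farthest tumors.

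Across the 11 Rag2-/- tumors, Ighm was set against 7 lists of cell type genes. With all 11 tumors the highest r was that of the list of plasma cells and antibody secretion, with a Pearson r of 0.71 (permutation p = 0.0139, adjusted 0.0742) and a rho of 0.69 (permutation p = 0.0233, adjusted 0.124), and r was 0.68 without the 2 farthest tumors. Of that list, Mzb1 and Tnfrsf17 were listed at 0 in 7 and Pou2af1 in 10 of these 11 tumors. Txndc5, Xbp1, Creld2 and Sdc1 had means of 7.09, 5.88, 4.64 and 4.56 there. For macrophage genes r was 0.59 (permutation p = 0.0608, adjusted 0.195) with a rho of 0.47 (permutation p = 0.145, adjusted 0.332), and r was 0.49 without the 2 farthest tumors. For T cell genes r was 0.54 (permutation p = 0.0854, adjusted 0.228) with a rho of 0.55 (permutation p = 0.0861, adjusted 0.230), and r was 0.77 without the 2 farthest tumors, then the highest of the 7. In these tumors Cd3e was listed at 0 in all 11, and Cd3d, Cd8b1 and Cd5 in 6 of 11 each. Cd4 and Cd2 had the highest means of that list there, 0.51 and −0.36. For plasmacytoid dendritic cell genes r was 0.44 (permutation p = 0.176, adjusted 0.353) with a rho of 0.56 (permutation p = 0.0779, adjusted 0.230), and r was 0.60 without the 2 farthest tumors. For skeletal muscle genes r was 0.50 (permutation p = 0.119, adjusted 0.272) with a rho of 0.41 (permutation p = 0.215, adjusted 0.430). For natural killer cell genes r was 0.25 and rho 0.24, and for B cell identity r was −0.15 and rho 0.30. Without the 2 farthest tumors r was 0.44, 0.44 and 0.56 in turn. None of the 7 passed the correction, and 11 tumors leave a wide range for each. S46 and S51 were the tumors with the most Ighm. Their means of the skeletal muscle list were 7.95 and 12.8, with a median of 8.62 over the 11 tumors. The part of muscle content in these relations was not tested.

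As a description, the genes whose log2 values followed Ighm most closely over the 11 Rag2-/- tumors, of 18368 ranked, were Sema4a (r = 0.97), Fam53b (r = 0.95), Nr1h3 (r = 0.95), Cybb (r = 0.95) and C1rl (r = 0.94). Those that followed Igkc most closely over the 8 Rag2+/- tumors, of 18367 ranked, were Pik3ap1 and Jchain (both r = 0.98), Phf11b (r = 0.98), Dhx58 (r = 0.97) and Lgals3bp (r = 0.96). The points of each relation share their library and its normalization.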

How the data were processed

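The authors deposited log2 values of upper-quartile normalized FPKM with 0.1 added, from reads aligned to mouse B38 in Array Studio with at most 2 mismatches and quantified on Ensembl release 86. The submitters' processing notes also name Trimmomatic 0.36, STAR and HTSeq. Libraries were 150-base paired reads, not stated to be strand specific. Of 48795 identifiers, 48349 matched a symbol. Fragments were estimated with GENCODE vM21 (GRCm38) transcript lengths from the steps of low values, of which 80.8% to 87.8% fell within 0.05 of a whole fragment. For a member, the transcript length that put its low values closest to whole fragments was used. Ighm had 0 low values, so its longest transcript of 1698 bases was used without this check.

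All 19 tumors entered limma 3.58.1 (R 4.3.3), whose variance prior followed mean expression, and p-values were adjusted by Benjamini-Hochberg at 0.05 across the 18374 genes above the lowest value in at least 8 tumors. Single values had two-sided exact permutation tests over 75582 choices of 8 tumors, and correlations all permutations or 100000 random ones. Python 3.11.15 ran the other steps, with scipy 1.17.1, pandas 2.3.3 and numpy 2.4.6. The fit was checked on simulated data. Alternatives changed the samples, pseudocount, normalization, filter and variance model. The members and lists were chosen with earlier results of these data known. The members are always named, of V segments the 3 highest by mean in each of the heavy and κ loci, and of genes alike in pattern the 5 with the highest r. A library holds 1 tumor. Sequences are those of GENCODE vM21. Some genes of the lists are not reported here.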

Additional observations from a re-analysis of the deposited data

Results flagged for a closer look

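Of 20 sets of 8 Rag2+/- values tested for a lone extreme, 3 had one by Dixon's test at the 95% level, and chance marks about 1 in 20. Ighg1 was at −3.32 in S56, and the next lowest tumor was at −0.47. Iglc2 was at −3.32 in S53, and the next lowest tumor was at −0.60. Both tumors are listed at 0 for the gene, so the added 0.1 sets the size of these 2 gaps. The share of Ighg3 in heavy chain constant normalized FPKM was 0.475% in S54, and the next highest tumor had 0.165%.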

How the results depend on the processing

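Igkc, Igha, Jchain and Ighg2b stayed lower in Rag2-/- tumors and past the threshold, and Ighm stayed lower without passing it, in every alternative run by limma and by exact permutation, wherever the gene entered the fit. The first 4 reached the main filter only with the Rag2+/- tumors, so their stability is a description. Ighg2b, listed at 0 in all Rag2-/- tumors, could only come out lower. Fragments scaled to each library's total and the removal of S41 with S51 were chosen after seeing the data. The limma difference of Ighm ran from −0.92 to −0.35 with each tumor left out. The size depended on the pseudocount, with limma differences at 1 and at 0.01 of −6.67 and −12.56 for Igkc, −5.84 and −10.74 for Igha, −4.30 and −9.79 for Jchain and −1.88 and −7.98 for Ighg2b. Ighg2c passed limma with a pseudocount of 0.01 (−6.16, adjusted p = 0.0272) and without S41 and S51 (−4.02, adjusted p = 0.0440). With each tumor left out it ran from −4.16 to −3.24, and it passed without S51, S52 or S59 (adjusted p = 0.0240, 0.0306 and 0.0319). Ighd passed the exact permutation test with the 15 tumors the study lists (−1.03, p = 0.0292) and without S49 or S56 (p = 0.0371 and 0.0241), and ran from −0.97 to −0.60 with each tumor left out. Against Ighm, where the added 0.1 sets the value of a gene listed at 0, Ighg3 changed sign from 0.0024 to −0.074 with the 15 tumors, −0.049 without S41 and −1.28 with a pseudocount of 0.01, and Ighd to 0.45 with a pseudocount of 1, while Ighg1 (−0.19), Ighg2c (−1.05) and Iglc2 (−0.31) no longer passed with a pseudocount of 1. Without the 2 farthest tumors, r with Igkc moved from 0.40 to −0.80 for Ighg2b, from 0.039 to −0.74 for Ighg2c, from 0.42 to 0.70 for Ighg3 and from 0.31 to 0.080 for Iglc2, and r with Ighm from −0.15 to 0.56 for B cell identity and from 0.54 to 0.77 for T cell genes. The cause of these moves was not tested. The number of genes lower and higher was 24 and 0 with all 19 tumors, 39 and 14 with the 15 tumors, 32 and 11 without S51, 28 and 11 without S41 and S51, 36 and 0 without S56, and 4 and 0 among the 12826 genes with a mean log2 value above 0. Fragments scaled to each library's total moved the median over all genes to 0.28. No paired analysis was possible because the labels number no replicates, and the numbers given to the tumors here only name them. Low counts limit Ighd, Ighg3, Iglc2 and all Rag2-/- values but those of Ighm, and S41 has the least depth.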
